A study of Saccharomyces cerevisiae with 3 samples.

Results

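The genes described here encode the subunits of the nuclear RNA polymerases I, II and III of Saccharomyces cerevisiae. They were taken as the rows of the deposited table that carry the systematic names of 31 open reading frames (ORFs), out of 6207 ORF rows. The rule uses no measured value, but it was set with earlier results of these data known. By enzyme, 7 are specific to polymerase I (Pol I), 7 to Pol II and 10 to Pol III, 2 are shared by Pol I and Pol III, and 5 are common to all 3 enzymes. All 31 systematic names matched the RefSeq gene table of assembly R64, and the gene symbols are those of that table.

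Each 2-colour array compared RNA of the strain MID2extWSC1cyt (BY4741 background) exposed to caspofungin at 15 ng/ml for 2 h with RNA of the untreated part of the same culture, both grown in YEPD at 24 °C. Caspofungin inhibits the synthesis of β-1,3-glucan in the fungal wall, and the strain's name describes a sensor made of the extracellular part of Mid2 and the cytoplasmic part of Wsc1, which both compared RNAs share. The labels describe 2 cultures and 2 hybridizations of each with exchanged dyes. The 3 arrays numbered 1, 2 and 4 were analysed here. Caspofungin RNA was labelled with Cy3 on array 1 and with Cy5 on arrays 2 and 4, and the labels do not pair array 1 with either of the others by culture. The sensor is the only modification of the strain that the labels name, and no strain without it was analysed here.

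RNA polymerase I transcribes the large ribosomal RNA precursor, RNA polymerase III transcribes 5S rRNA, tRNAs and other small RNAs, and RNA polymerase II transcribes messenger RNAs. The enzymes have the same core plan: a pair of large catalytic subunits, an assembly platform related to the bacterial alpha dimer, a set of small common subunits, and a protruding stalk. Pol I and Pol III carry, as fixed subunits, parts that resemble the separate Pol II factors TFIIF, TFIIE and TFIIS. In growing yeast most transcription serves ribosome production, and Pol I and Pol III output is lowered by many stresses, in the case of Pol III through the repressor Maf1.

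The values are log2 ratios of the dyes' signals on an array, and neither the labels nor the table state the direction of the ratio. Signs are therefore those of the deposited scale. The fits read each ratio as caspofungin over untreated, so that under this reading positive means more transcript in the caspofungin RNA. If array 1 runs the other way, its sign turns. Most values of the whole table were negative, with medians of −0.24, −0.14 and −0.93 on arrays 1, 2 and 4. A sign alone therefore says little, and for some genes the position among all ORFs of an array is given too. The arrays held values for 3748, 2833 and 855 ORFs, and the SD over those ORFs was 0.809, 0.436 and 1.55. Of the a-cell genes that mark the MATa background, 4 of 6 had a value, and of the alpha-cell genes 0 of 4 did. Of 4 genes that are inactivated in BY4741, MET17 and URA3 had no value. HIS3 and LEU2 had values, −1.20 and −0.069 for HIS3 and −0.75 and 0.16 for LEU2 on arrays 1 and 2. The labels do not say whether the strain carries either gene as a marker. If it does not, a value in the table does not by itself show that an intact transcript was present.

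No polymerase subunit gene passed the test on these arrays, and no class of subunits moved together on all of them. Of the 31 genes, 26 had a value on at least 1 array (83.9%), against 62.4% of all ORFs. RPA190, RET1, RPC37, RPC11 and RPB5 had none. They encode the largest subunit of Pol I, the second largest of Pol III, a pair of small Pol III subunits of termination and RNA cleavage, and the common jaw subunit. Array 1 measured 25 of the genes, array 2 measured 18 and array 4 measured 8. All 3 arrays measured 7 (22.6%, against 11.6% of all ORFs). These 7 were RPB11 of Pol II, RPA12 of Pol I, RPC40 and RPC19 of Pol I and III, and RPO26, RPB8 and RPC10 of all enzymes.

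**Figure D1:**
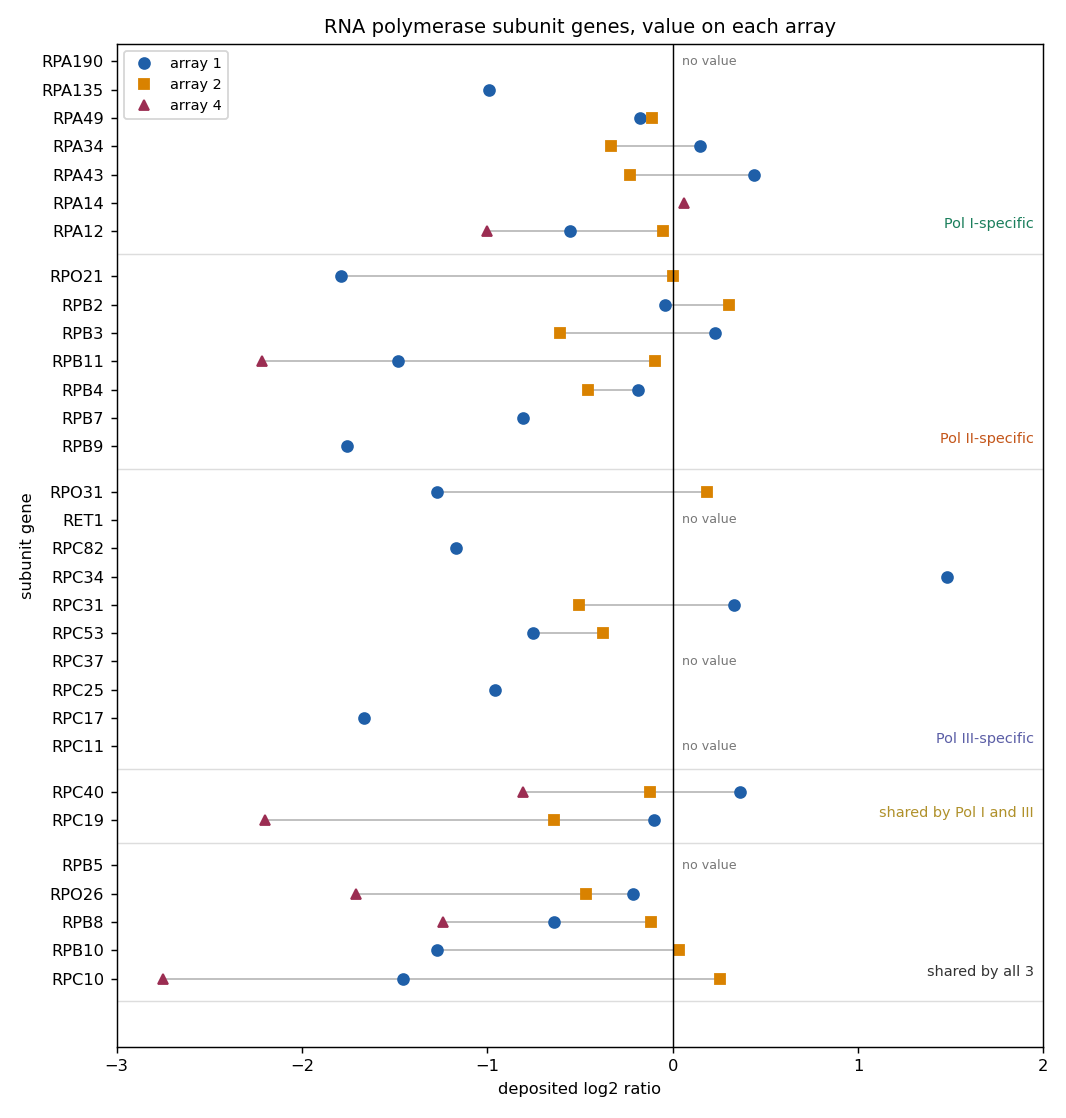
Deposited log2 ratio (horizontal axis) of each subunit gene (vertical axis, grouped by enzyme) on array 1 (circles), array 2 (squares) and array 4 (triangles), with a grey line joining the lowest and highest value of a gene. On array 2 the 18 measured genes lie between −0.64 and 0.30, while on array 1 the 25 measured genes spread from −1.79 to 1.48.

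The genes were tested in 2 fits across the whole table with limma, which moderates each gene's error with that of all genes. The fit on arrays 1 and 2, whose dyes are exchanged, covered 2818 ORFs, of which 25 (0.887%) passed the threshold of 0.05 after Benjamini-Hochberg adjustment, all with positive means. Of the 18 subunit genes in that fit 0 were called, with adjusted p-values in limma from 0.374 to 0.883. At an unadjusted p under 0.05 there were 0 of the 18, against 380 of 2818 ORFs (13.5%). The mean of arrays 1 and 2 ranged from −0.89 to 0.13 over the 18 genes, with standard errors from 0.261 to 0.399, and the smallest mean that was called anywhere in the table was 1.47. The fit on all 3 arrays, with a dye term, covered 723 ORFs, of which 2 (0.277%) were called. Of the 7 subunit genes in it 0 were called, with adjusted p-values in limma from 0.868 to 0.996. At an unadjusted p under 0.05 there were 0 of the 7, against 23 of 723 ORFs (3.18%). The standard error of that fit was 0.727 for every gene. If arrays 1 and 2 share a culture, the errors of the first fit measure technical spread only. In the fit of 3 arrays, array 1 alone had Cy3 on the caspofungin RNA, so the dye term fits it exactly. The standard error of that fit therefore rests on the differences between arrays 2 and 4, pooled over the 723 ORFs. That fit also takes the 3 arrays as independent, although the labels describe 2 cultures.

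The common subunits of all 3 enzymes were negative on array 1 and on array 4 wherever they were measured, and of both signs on array 2. Most ORFs share that sign, with 63.8% negative on array 1 and 80.8% on array 4. RPC10 (YHR143W-A, also called RPB12), a small zinc-binding subunit that holds the assembly platform to the second largest subunit, had −1.45, 0.26 and −2.75 on arrays 1, 2 and 4. It was thus among the lower values of arrays 1 and 4, with 5.26% and 11.2% of the ORFs below it, and among the higher ones of array 2, with 86.0% below it. In the fit of 3 arrays it stood at −1.35 ± 0.73 (SE, 3 arrays; limma adjusted p = 0.868), the lowest of the 7 subunit genes in that fit. RPB10 (YOR210W), the other small zinc-binding subunit, had −1.27 on array 1 and 0.035 on array 2. RPC10 and RPB10, at 213 bp each the shortest genes of the 31 in R64, were thus both strongly negative on array 1 and slightly positive on array 2. RPB8 (YOR224C), a common subunit without a bacterial counterpart, had −0.64, −0.12 and −1.24 on arrays 1, 2 and 4, and was fitted at −0.66 ± 0.73 (SE, 3 arrays; limma adjusted p = 0.904). RPO26 (YPR187W, also called RPB6), the counterpart of bacterial omega, had −0.21, −0.47 and −1.71 there, with a fitted value of −0.65. On array 1 it lay near the middle, above 51.5% of the ORFs. Over arrays 1 and 2 the 4 measured common subunits had means of −0.62 for RPB10, −0.60 for RPC10, −0.38 for RPB8 and −0.34 for RPO26. The arrays behind these means differ by 1.71 for RPC10 and by 1.31 for RPB10. With the trend with gene length removed, all 4 means turned positive, to 0.016 for RPB10, 0.034 for RPC10, 0.17 for RPB8 and 0.15 for RPO26. The median of all ORFs also rose, from −0.18 to 0.037. RPB10 and RPC10 thus stayed just below that median, while RPB8 and RPO26 lay above it.

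The assembly platform gave different values for the partners of a pair. In Pol I and Pol III it is the heterodimer of RPC40 and RPC19, and in Pol II that of RPB3 and RPB11. RPC40 (YPR110C) had 0.36, −0.12 and −0.81 on arrays 1, 2 and 4, and its partner RPC19 (YNL113W) had −0.10, −0.64 and −2.20. RPC40 was above RPC19 on each array, by 0.46, 0.52 and 1.39. Their fitted values were −0.050 and −0.76 (SE 0.73 each), and the difference between the genes was not tested. RPB3 (YIL021W) had 0.23 on array 1 and −0.61 on array 2, while RPB11 (YOL005C) had −1.48, −0.096 and −2.21 on arrays 1, 2 and 4. RPB3 was therefore above RPB11 by 1.71 on array 1 and below it by 0.51 on array 2, so the order of the Pol II pair was not kept. In position RPC19 and RPB3 were low on array 2, with 5.08% and 5.65% of the ORFs below them. RPB11 was about as low in position on array 1, with 4.99% below it, but above 55.2% on array 2. RPB11 was fitted at −1.32 ± 0.73 (SE, 3 arrays; limma adjusted p = 0.868). On all 3 arrays 5 of the 7 genes were negative, against 45.4% of 723 ORFs, and 0 of the 7 were positive, against 7.61%. Below the median of all 3 arrays lay 0 of the 7, against 20.9% of the 723 ORFs. RPB11 and RPC10 were the 2 subunit genes at 2-fold or more in that fit, and RPB11 was also negative on each array. That makes 1 of 7, against 75 of 723 ORFs (10.4%). After each array was centred on its median there was 0 of 7, against 1.94% of the ORFs.

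The largest subunits of Pol II and Pol III differed widely between arrays 1 and 2, by 1.79 and 1.46. RPO21 (YDL140C, also called RPB1), the largest subunit of Pol II, which carries the C-terminal repeat domain, had −1.79 on array 1 and 0.0019 on array 2. On array 1 only 1.97% of the ORFs lay below it, and on array 2 it was above 66.9% of them. RPO31 (YOR116C), the largest subunit of Pol III, had −1.27 and 0.18 on these arrays, with 7.92% and 82.4% of the ORFs below it. Their means of −0.89 ± 0.40 and −0.54 ± 0.36 (SE, 2 arrays; limma adjusted p = 0.376 and adjusted p = 0.466) rest on array 1 in both cases. RPB2 (YOR151C), the second largest subunit of Pol II, was near 0 on array 1 (−0.041) and had 0.30 on array 2, the highest value of the 18 subunit genes there. RPA135 (YPR010C), the second largest subunit of Pol I, had a value on array 1 only, −0.99. Array 4 measured none of these large subunits. The catalytic pair of one enzyme could be compared only for Pol II, where RPO21 was far below RPB2 on array 1 and below it by less on array 2.

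The stalk, which binds the emerging RNA, was measured in part for each enzyme. RPA43 (YOR340C), the stalk subunit of Pol I that contacts the initiation factor Rrn3, had 0.44 on array 1 and −0.23 on array 2. RPA14 (YDR156W), its partner, had a value on array 4 only, 0.062, above 82.8% of the ORFs of that array. In the R64 table RPA14 overlaps YDR157W, which had −3.36 on the same array. The labels do not give the strand or extent of the probes. RPB4 (YJL140W) of the Pol II stalk had −0.19 and −0.45 on arrays 1 and 2, and its partner RPB7 (YDR404C) had −0.81 on array 1. The Pol III stalk subunits RPC17 (YJL011C) and RPC25 (YKL144C) were measured on array 1 only, with −1.67 and −0.96. Of the ORFs there, 2.85% and 15.3% lay below them. On array 1 the Pol III stalk genes were thus lowest, the Pol II genes lay between and RPA43 was highest, but only RPA43 and RPB4 had a second array, and there RPA43 was negative too.

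The RNA cleavage subunits RPA12 (YJR063W) of Pol I and RPB9 (YGL070C) of Pol II were both negative on array 1. RPA12, which also acts in termination, had −0.56, −0.052 and −0.9997 on arrays 1, 2 and 4, each near the middle of its array, with 31.8%, 60.7% and 47.7% of the ORFs below it. RPB9, which acts in start site choice and transcript fidelity, had −1.76 on array 1 and no value on the others. It was the second lowest of the 25 subunit genes there, after RPO21. RPC11, the cleavage subunit of Pol III, had no value.

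Among the subunits that resemble separate Pol II factors, values again went both ways. RPA49 (YNL248C) and RPA34 (YJL148W), the TFIIF-like pair of Pol I, had −0.17 and 0.15 on array 1 and −0.11 and −0.33 on array 2. RPA49 was the subunit gene whose arrays 1 and 2 differed least, by 0.064. RPC53 (YDL150W) of the corresponding Pol III pair, which acts in termination and reinitiation, had −0.75 and −0.37. It was the only 1 of the 18 genes that lay below the median of both arrays, where 25.9% of the 2818 ORFs did, and its mean was −0.56 ± 0.27 (SE, 2 arrays; limma adjusted p = 0.397). Of the TFIIE-like initiation subcomplex of Pol III, RPC82 (YPR190C) had −1.17 and RPC34 (YNR003C) had 1.48 on array 1 only. RPC31 (YNL151C) had 0.33 on array 1 and −0.51 on array 2. RPC34, which contacts the initiation factor Brf1, was the highest of all subunit genes on array 1, above 97.9% of the ORFs, while RPC82 of the same subcomplex was above 10.3%.

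**Figure D2:**
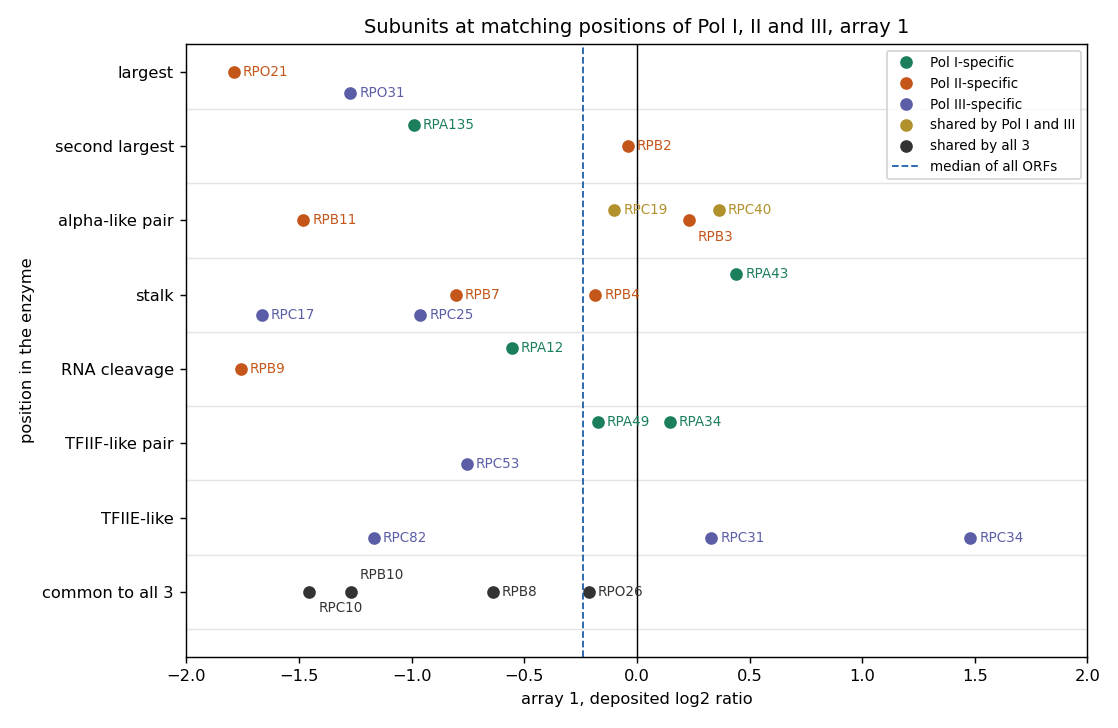
Deposited log2 ratio on array 1 (horizontal axis) of the 25 measured subunit genes, set out by matching position in the 3 enzymes (vertical axis) and coloured by enzyme, with the median of all ORFs as a dashed line. Subunits at 1 position are spread widely, from −1.17 for RPC82 to 1.48 for RPC34 in the TFIIE-like subcomplex of Pol III.

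Shared and polymerase-specific subunits did not keep one order. On array 1 the median was −0.43 over 6 shared genes and −0.75 over 19 specific genes, so the shared genes were higher by 0.33. On array 2 the medians were −0.12 over 6 and −0.17 over 12 genes, a difference of 0.049. On array 4 they were −1.71 over 5 and −0.9997 over 3 genes, so the shared genes were lower by 0.71 (a difference of −0.71). These array-wise medians rest on different genes. Over the same 6 shared and 12 specific genes on arrays 1 and 2, array 1 gave a difference of −0.25, array 2 gave 0.049 and their mean gave −0.13. The sign of the difference thus changed with the array and with the genes counted, and it was not tested.

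By enzyme, the order of the medians was not the same on every array and scale. Over arrays 1 and 2 it ran Pol I, Pol II, Pol III downward as deposited, after centring and with the length trend removed. It differed on array 2, with equal spread and with array 1 turned. Over arrays 1 and 2 the median of the mean was −0.12 for 4 Pol I genes, −0.32 for 5 Pol II genes, −0.54 for 3 Pol III genes and −0.37 for 6 shared genes, beside −0.18 for the 2818 ORFs on both arrays. Of the 18 genes 3 had a positive mean, RPB2 (0.13), RPC40 (0.12) and RPA43 (0.11), and 15 a negative one, against 66.8% of the 2818 ORFs. On array 1, with more genes, the medians were −0.17 for 5 Pol I genes, −0.81 for 7 Pol II genes and −0.96 for 7 Pol III genes. On array 2 they were −0.17 for 4, −0.096 for 5 and −0.37 for 3 genes, so the low position of the Pol II genes on array 1 was not seen there. On array 4, Pol I had 2 genes, Pol II had 1 and Pol III had 0. After each array was centred on its median, the median of the mean turned to 0.069 for the Pol I genes and was −0.13, −0.36 and −0.19 for Pol II, Pol III and shared genes, beside 0.0049 for all ORFs. With the trend with gene length removed, the medians of Pol I, Pol II and shared genes were positive (0.29, 0.050 and 0.16) and that of Pol III genes was −0.40, beside 0.037 for all ORFs, so that the Pol II genes were then closest to the table. With the arrays centred and brought to equal spread, the medians were 0.033, −0.27, −0.22 and −0.27 for Pol I, Pol II, Pol III and shared genes. With array 1 turned, they were −0.10, 0.17, 0.19 and 0.068 in the same order. The differences between enzymes were not tested.

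**Figure D3:**
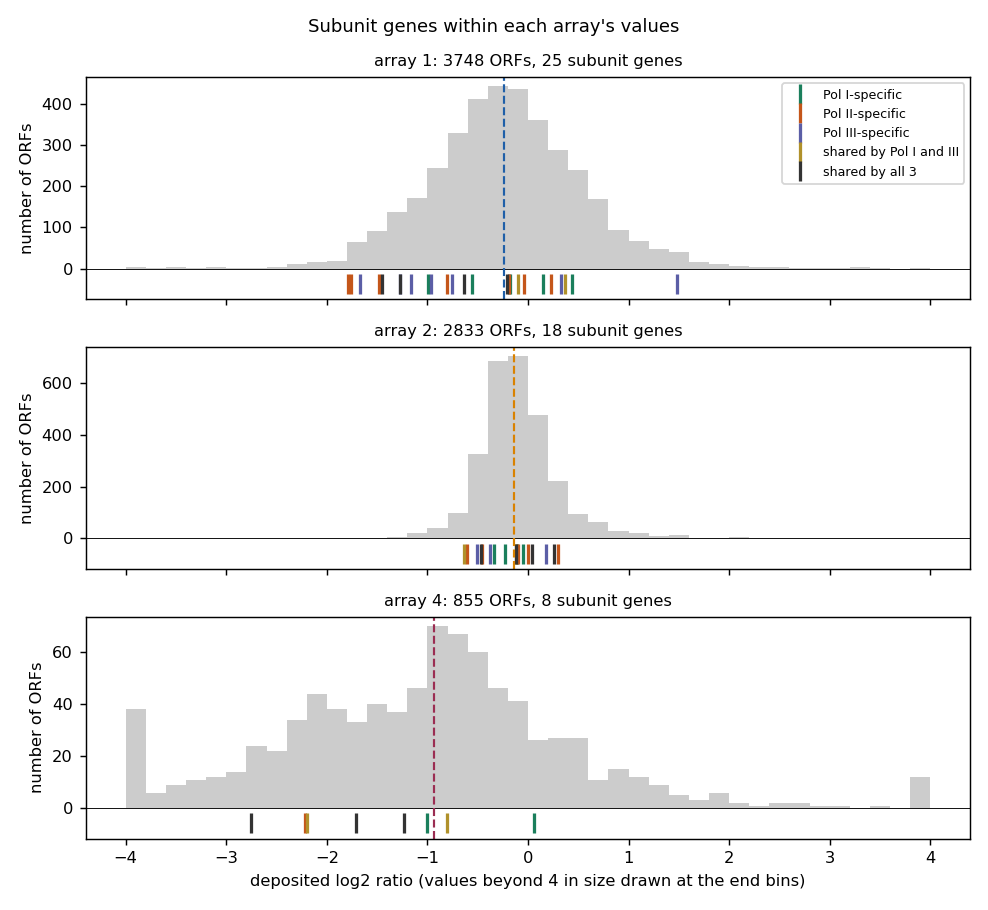
Histograms of the deposited log2 ratios of all ORFs on each array (vertical axis, number of ORFs; dashed line, median), with a tick below for each subunit gene, coloured by enzyme. Of the subunit genes, 14 of 25 lie below the median of array 1, 8 of 18 below that of array 2 and 6 of 8 below that of array 4.

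Of the subunit genes, 19 of 25 were negative on array 1 (against 63.8% of the ORFs), 13 of 18 on array 2 (against 66.6%) and 7 of 8 on array 4 (against 80.8%). Below the array's own median lay 14 of 25 on array 1 (against 50%), 8 of 18 on array 2 and 6 of 8 on array 4 (against 49.9% on each).

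The low tail of array 1 held more of the subunit genes than of all ORFs, and array 2, where few ORFs lay that low, did not repeat it. On array 1, 8 of 25 subunit genes (32%) were negative by at least 2-fold, against 14.3% of the 3748 ORFs. They were RPO21, RPB9 and RPB11 of Pol II, RPO31, RPC82 and RPC17 of Pol III, and the common RPB10 and RPC10. In the other direction there was 1 of 25, RPC34, against 5.47% of the ORFs. On array 2, 0 of 18 were negative by at least 2-fold, against 1.02%, and on array 4, 5 of 8 were, against 47.7%. Positive by at least 2-fold were 0 of 18 on array 2, against 2.12%, and 0 of 8 on array 4, against 6.67%. After array 1 was centred on its median, 7 of 25 were past the same limit, against 8.86% of the ORFs. After the trend of array 1 with gene length was removed, 2 of 25 (8%) were, RPO21 and RPC82, against 6.5% of the ORFs. Spearman's rho between value and gene length over all ORFs was 0.35 on array 1 and 0.39 on array 2, shorter genes having the lower values, and 0.047 on array 4. Over the subunit genes it was 0.23 on array 1 (25 genes), 0.059 on array 2 (18 genes) and 0.52 on array 4 (8 genes).

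Of the 8 low genes of array 1, 5 had a value on array 2, from −0.096 to 0.26, and 4 of the 5 were positive there. The 2 that had a value on array 4, RPB11 (−2.21) and RPC10 (−2.75), lay above 19.3% and 11.2% of the ORFs of that array. Over all 233 ORFs that were as low on array 1 and measured on array 2, 34.8% were positive on array 2, with a median of −0.12. Of the 18 subunit genes on both arrays, 10 (55.6%) had opposite signs, against 32.4% of the 2818 ORFs. In the same set, 8 were negative on both arrays (44.4%, against 47.1%) and 0 were positive on both (against 20.5%). Across the 18 genes Pearson's r between arrays 1 and 2 was −0.55 (Spearman's rho −0.54), while across the 2818 ORFs it was 0.44 (rho 0.30). Between arrays 1 and 4 it was 0.66 (rho 0.64) over 7 subunit genes, against 0.39 (rho 0.46) over 745 ORFs. Between arrays 2 and 4, which have the same dye orientation, it was −0.079 (rho −0.25) over the same 7. Over 724 ORFs it was 0.35 (rho 0.39) for that pair of arrays. Genes of an array share its labelling and hybridization, so these coefficients describe the arrays and carry no p-value. The median absolute difference between arrays 1 and 2 was 0.53 over the 18 genes and 0.39 over the 2818 ORFs. On array 2 the subunit genes were spread less than the table, with an SD of 0.286 against 0.436. On array 1 the SD was 0.829 against 0.809.

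**Figure D4:**
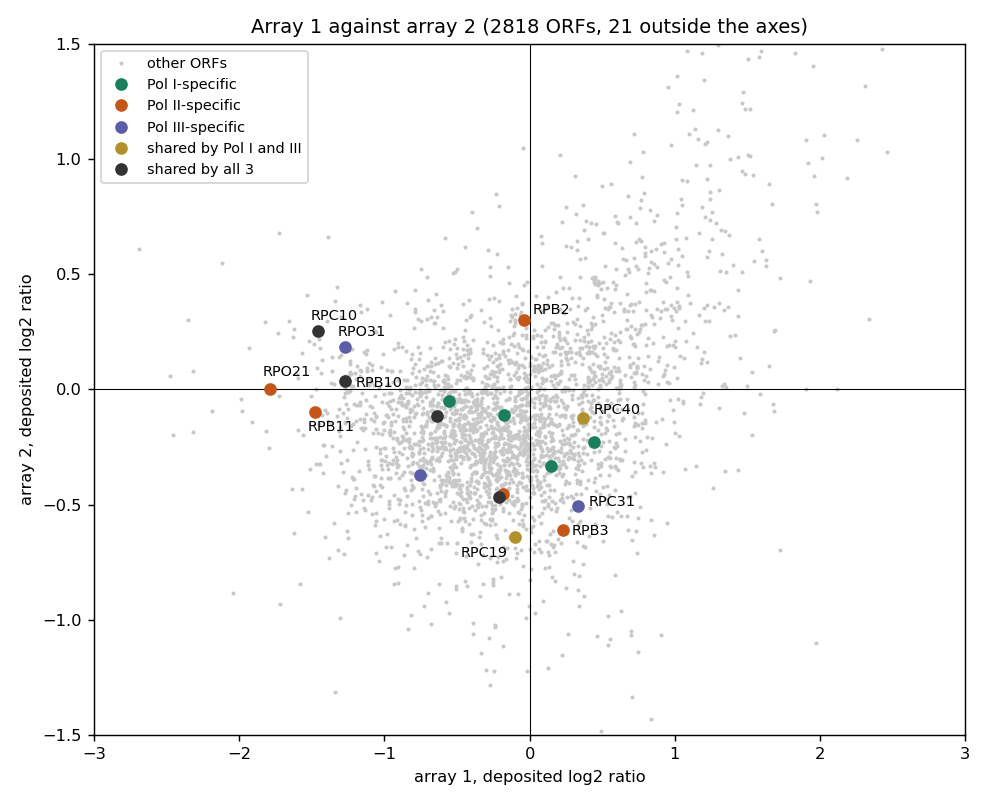
Deposited log2 ratio on array 1 (horizontal axis) against array 2 (vertical axis) for the 2818 ORFs measured on both (grey; 21 lie outside the axes), with the 18 subunit genes coloured by enzyme. RPC10, RPO31, RPB10 and RPO21 lie at or above 0 on array 2 and below −1 on array 1, while RPC31, RPB3, RPA34, RPA43 and RPC40 are positive on array 1 and negative on array 2.

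With array 1 turned to the opposite sign, the means of RPO21, RPC10, RPO31, RPB11 and RPB10 would be 0.90, 0.86, 0.73, 0.69 and 0.65, where the fit on arrays 1 and 2 called 1 of all ORFs and the fit of 3 arrays called 0, so that the absence of called subunit genes says nothing there. The dye term of the fit of 3 arrays, which then takes the place of the caspofungin term, was between −0.66 (RPC19) and 0.16 (RPB11) over the 7 genes.

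The factors that work with the polymerases were not called either. Of 87 genes on the lists of initiation, elongation, Mediator and assembly factors, 59 had a value on some array and 37 on arrays 1 and 2. Of the 37, 13 had a positive and 24 a negative mean, where 66.8% of the 2818 ORFs had a negative one. Their median was −0.18, beside −0.18 for all ORFs. At an unadjusted p under 0.05 there were 4 (10.8%), UAF30, MED4, MED11 and IWR1, all negative, against 13.5% of the ORFs, and 0 were called at an adjusted p in limma.

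Among the Pol I factors, 4 of 9 were measured on arrays 1 and 2. UAF30, of the upstream activating factor at the rRNA gene promoter, had −0.56 and −0.97, with a mean of −0.76 (limma adjusted p = 0.311). RRN3, the factor that makes Pol I competent for initiation, had 0.31 and 0.044. RRN9, also of the upstream activating factor, had a mean of −0.26, and HMO1, a high-mobility group protein of the rRNA genes, one of −0.088.

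Among the Pol III factors, 4 of 10 were measured on both arrays. MAF1, the Pol III repressor, had −0.21 and −0.24, and BRF1, the TFIIIB subunit that recruits Pol III, had −0.53 and −0.034. The TFIIIC genes TFC1 and TFC7 had means of 0.099 and −0.24. SPT15, the TATA-binding protein used by all 3 enzymes, had a value on array 4 only, −2.55.

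For Pol II, 9 of 18 general factors were measured on both arrays, 5 with a positive and 4 with a negative mean (median 0.087). The highest were SSL1 of TFIIH (0.36) and TFA1 of TFIIE (0.34), and the lowest were TFA2 of TFIIE and TFB4 of TFIIH (−0.34 each). The TFIIE partners TFA1 and TFA2 thus had opposite signs. Of the elongation and C-terminal domain factors, 6 of 17 were measured, from PAF1 (0.040) and RTF1 (0.014) of the Paf1 complex to the phosphatase SSU72 (−0.50) and the elongation factor SPT4 (−0.77). SPT4 had −1.82 on array 1 and 0.29 on array 2. Of the 233 ORFs that were negative by at least 2-fold on array 1 and measured on array 2, 34.8% were positive on array 2. Of the Mediator genes, 8 of 24 were measured, 1 positive and 7 negative (median −0.27), where 66.8% of the 2818 ORFs had a negative mean. SSN3, the Mediator kinase, and MED2 were highest (0.22 and −0.028), and MED4 (−0.64) and MED11 (−0.62) lowest. Neither MED4 nor MED11 was called (limma adjusted p = 0.362 and adjusted p = 0.363).

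Of the factors for polymerase assembly and import, 6 of 8 were measured on both arrays, 3 positive and 3 negative (median −0.053). RBA50, needed for Pol II assembly, had 0.81 and 0.15, and RTP1 a mean of 0.13. IWR1, which guides Pol II into the nucleus, had −0.72 and −0.49, with a mean of −0.61 (limma adjusted p = 0.369), and the GTPase gene GPN3 had a mean of −0.34. BUD27, of the prefoldin-like family, had a value on array 1 only, −2.03, and is named here after its value was seen.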

How the data were processed

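Total RNA was reverse transcribed and labelled with Cy5 and Cy3, per the labels' protocols. The deposited table holds log2 ratios of 1 value per ORF and array. The scanner, image analysis, normalization and the reason for empty cells are stated neither in the labels nor in the table. Raising 2 to any deposited value gave a ratio with no more than 4 decimals (100% of values met a grid of 0.0001 to within 0.01 of its spacing), which fixes the log base. The table has 2 control rows without values, left out here. Signal intensities were not analysed here, so precision is limited by the 3 arrays.

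ORFs were matched to the RefSeq table of R64 (5654 by locus tag, 57 by synonym, 496 unmatched). Fits used limma 3.58.1 in R 4.3.3: an intercept over arrays 1 and 2 (2818 ORFs), and caspofungin and dye terms over arrays 1, 2 and 4 (723 ORFs), each with 1 residual degree of freedom. The first fit had 7.81 prior degrees of freedom and the second infinitely many. Adjustment was by Benjamini-Hochberg over all ORFs of a fit. Only the fit on arrays 1 and 2 was tried on simulated data, with shifts larger than the mean of any subunit gene. Medians over gene classes carry no test. The members and lists were chosen with earlier results of these data known. Every subunit was named, and for each other list the genes called or else the 2 highest and 2 lowest means of arrays 1 and 2. Alternatives were centring, equal spread, removal of the length trend (loess on log2 gene length), array 1 turned, other call rules and arrays left out. Planned searches of promoters for sequence motifs were not run.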

Additional observations from a re-analysis of the deposited data

How the results depend on the processing

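The count of subunit genes called was 0 in both fits under every alternative run: centring, equal spread, length trend removed, array 1 turned, robust moderation, an adjusted p under 0.10, an unadjusted p under 0.05, other sets of ORFs and, for the fit of 3 arrays, no dye term, arrays averaged as 1 culture (1 with 2, or 1 with 4) and each array left out (0 to 0). In 10 of the 15 alternatives of the fit of 3 arrays 0 of all ORFs were called, so a count of 0 subunit genes carries no information there, and the other 5 called 2 to 25 ORFs. The 9 alternatives of the fit on arrays 1 and 2 called 1 ORF (array 1 turned) to 380 ORFs (unadjusted p). No paired analysis was possible because the arrays form 1 group and each array already pairs treated with untreated RNA. The causes of the shifts below were not tested.

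The Pol I median of −0.12 became 0.069 after centring, 0.033 with equal spread, 0.028 when centred over the ORFs on arrays 1 and 2, and 0.29 with the length trend removed. The Pol II median of −0.32 became −0.13, 0.050 and −0.17 after centring, with the length trend removed and when centred over the common ORFs, 0.17 with array 1 turned, −0.41 as a mean and −0.81 over all genes of array 1. The Pol III median of −0.54 became −0.22 with equal spread, 0.19 with array 1 turned and −0.96 over all genes of array 1. The shared median of −0.37 became 0.16 with the length trend removed and 0.068 with array 1 turned. The shared minus specific difference of −0.13 became 0.085 with the length trend removed and 0.33 over all genes of array 1. With an array left out, the values ran from −0.17 to −0.014 for Pol I, −0.19 to −0.096 for Pol II, −0.75 to −0.37 for Pol III, −0.43 to −0.12 for shared genes and −0.25 to 0.049 for the difference.

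Over all ORFs the median mean of arrays 1 and 2 was −0.18 as deposited and 0.0049 after centring. It was 0.037 with the length trend removed and −0.0041 with array 1 turned. Among the 18 means of arrays 1 and 2, the sign changed for 3 after centring, RPA49 (0.046), RPA34 (0.093) and RPC31 (0.099). It changed for 10 with the length trend removed: RPA34 (0.31), RPA12 (0.28), RPB3 (0.050), RPB4 (0.10), RPC31 (0.28), RPC19 (0.18), RPO26 (0.15), RPB8 (0.17), RPB10 (0.016) and RPC10 (0.034). It changed for 11 with array 1 turned: RPA49 (0.032), RPA43 (−0.33), RPA12 (0.25), RPO21 (0.90), RPB11 (0.69), RPO31 (0.73), RPC53 (0.19), RPC40 (−0.24), RPB8 (0.26), RPB10 (0.65) and RPC10 (0.86). On either array alone the values ran from −0.33 to 0.15 for RPA34, −0.23 to 0.44 for RPA43, −1.79 to 0.0019 for RPO21, −0.041 to 0.30 for RPB2, −0.61 to 0.23 for RPB3, −1.27 to 0.18 for RPO31, −0.51 to 0.33 for RPC31, −0.12 to 0.36 for RPC40, −1.27 to 0.035 for RPB10 and −1.45 to 0.26 for RPC10. The counts of array 1 after centring and after removal of the length trend were chosen after the values were seen.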
